A study of Mus musculus with 2 samples.

Results

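The 54 genes described here are a selection from the Wnt pathway, from its ligands and receptors to its secreted inhibitors, intracellular parts and feedback targets. They were listed by name, with earlier results of these data known. Each was taken from the probe sets to which the platform's annotation gives that gene symbol alone. Of the 54, 53 genes were matched by 125 probe sets, out of 18193 genes with such a probe set on the arrays. Tcf7, a nuclear partner of beta-catenin, had no such probe set and was not analysed here. The cells were primary endothelial cells from C57/BL6 embryos at E10.5 (mid-gestation), carrying floxed Snail1 alleles in both groups and grown with 20% serum and endothelial growth factors. Snail1 KO cells received an adenovirus with Cre recombinase, which cuts out the floxed part of the gene. WT cells received an adenovirus with β-galactosidase and kept their floxed alleles, and both were harvested some days later. Each group holds 1 Affymetrix array, so differences are given by size, no test was possible, and p-values and errors over replicates are not given. The number of embryos behind each culture, and whether cells were pooled, are not stated by the labels.

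Wnt proteins are lipid-modified and secreted signals that bind Frizzled receptors and their co-receptors Lrp5 and Lrp6. Binding stops a complex of Axin, Apc and Gsk3b from marking beta-catenin for destruction, and beta-catenin then enters the nucleus and activates genes with TCF and LEF proteins. Among these genes are inhibitors of the pathway itself, and in endothelium the pathway is known above all for vessel growth and barrier formation in the brain.

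Values are RMA log2 expression values, and differences are Snail1 KO minus WT on that log2 scale. The median value over all 45101 probe sets was 4.70 on the Snail1 KO array and 4.66 on the WT array. Snai1, the targeted gene, was at 3.59 on the Snail1 KO array and 5.33 on the WT array, a difference of -1.74 in its only probe set. The Snail1 KO value alone is below 3.97, the filter level applied to the average of both arrays, so the size of this difference is uncertain, and the labels do not say whether the probes lie in the deleted part. Where a gene had several probe sets, the one that was brightest on average stood for it, and the gene was analysed if its average exceeded a filter level of 3.97. That level is the 40th percentile of the averages of non-control probe sets. As a yardstick, the robust SD of the difference over the 12874 analysed genes was 0.32, and other probe sets of a gene differed from its brightest with an SD of 0.40. Neither figure stands in for replicate cultures. All 10 endothelial markers were analysed, with a summed linear signal of 30618 on the Snail1 KO array and 28956 on the WT array, so the labelled cell type was borne out on both. Because each group had its own virus, loss of Snail1 and an effect of Cre or of the virus cannot be told apart in any value below.

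Among the Wnt members, 42 were analysed and 38 lay within 2-fold. Of the 42, 1 was at least 2-fold higher on the Snail1 KO array, where 0.971% of all analysed genes were, and 3 were at least 2-fold lower, where 1.84% were. The gene past 2-fold in the higher direction was Nkd1, and those in the lower direction were Sfrp1, Frzb and Sp5. At 1.5-fold, 5 members were higher and 4 lower, against backgrounds of 5.06% and 6.08%. By any size, 24 were higher, 17 lower and Wnt2b had the same value on both arrays, while 48.9% of all analysed genes were higher and 50.9% lower. The median difference of the members was 0.106 and their mean -0.012, beside a median of -0.008 over all analysed genes. As the members were chosen with earlier results of these data known, these shares describe the list and do not test it. In a bulk culture, fewer cells of a kind and less RNA per cell cannot be told apart.

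**Figure D1:**
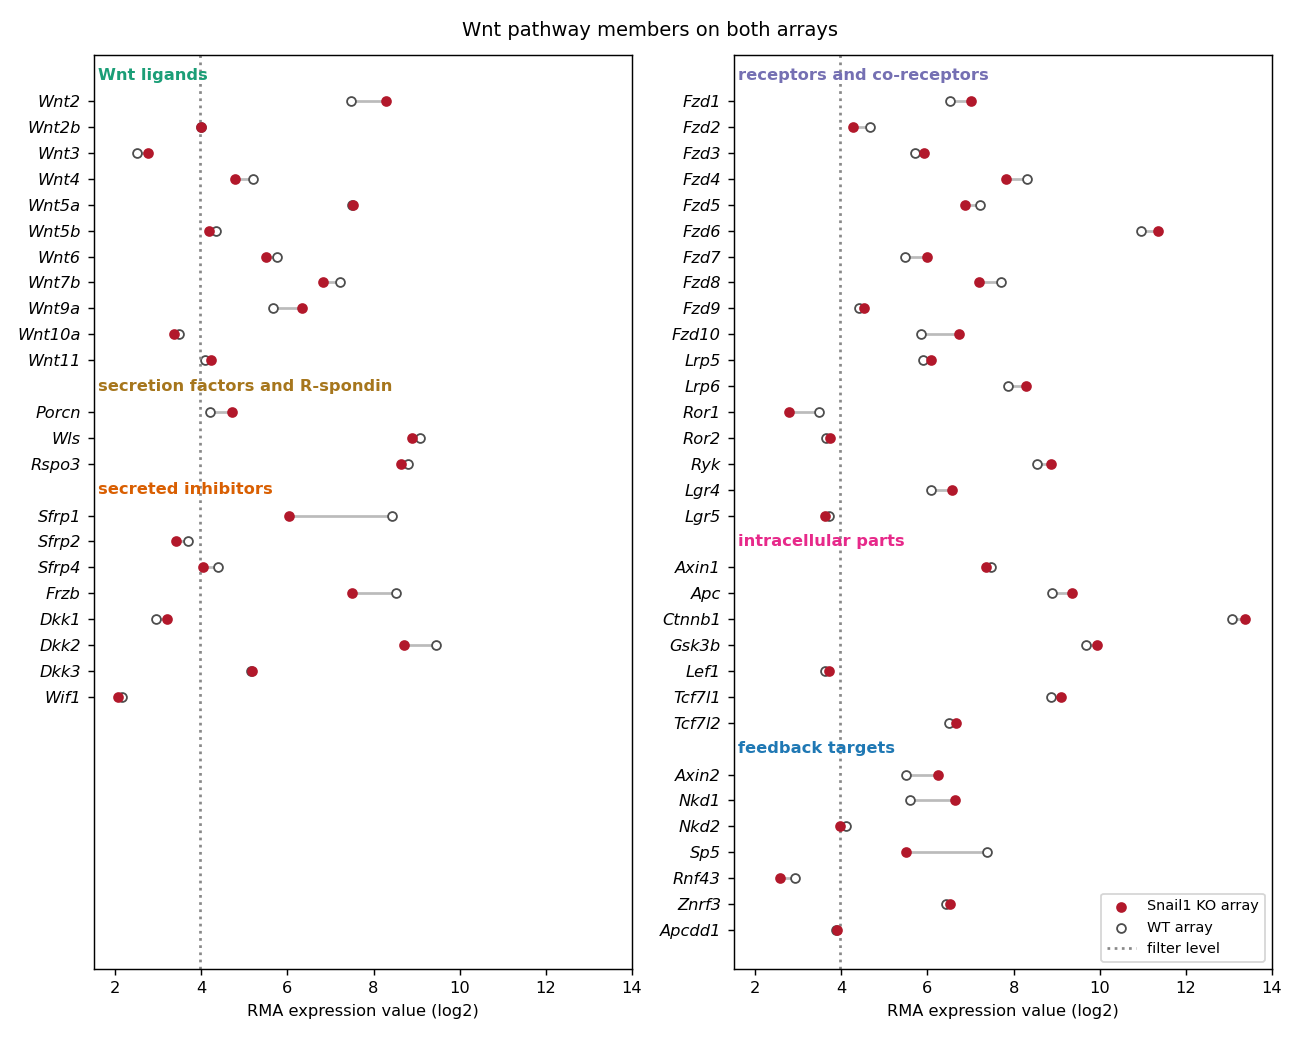
RMA log2 values of the 53 matched members by role, with filled points for the Snail1 KO array, open points for the WT array and a dotted line at the filter level of 3.97. Sfrp1, Sp5, Frzb and Nkd1 have the points that lie furthest apart, and 11 members lie below the filter level.

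Secreted inhibitors were the role with the lowest median, at -0.727 over 5 analysed members, 4 of them lower on the Snail1 KO array. That median was -0.315 over all 8 members without a filter and -1.017 with the filter at the 60th percentile of probe sets. Sfrp1, a secreted Frizzled-related protein that binds Wnt proteins outside the cell, was at 6.04 on the Snail1 KO array and 8.44 on the WT array. This difference of -2.40, or 5.28-fold, was the 25th lowest of the 12874 analysed genes. Its 5 probe sets were all lower.

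The other Sfrp1 probe sets gave 5.21 on the Snail1 KO array and 7.63 on the WT array (-2.42), 3.74 and 5.30 (-1.56), 6.16 and 7.28 (-1.12), and 5.55 and 6.33 (-0.79), each pair in that order. The set at -0.79 holds probes that can bind several transcripts. The size of the Sfrp1 difference thus depended on the probe set, and its direction was the same in all of them. The mean over the 5 sets was -1.66.

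Frzb, a further Frizzled-related protein, was at 7.50 on the Snail1 KO array and 8.52 on the WT array, a 2.02-fold lower value in its brightest probe set. Its other probe set was also lower, with a difference of -0.71, and the mean of both was -0.86, within 2-fold. Dkk2, a Dickkopf protein that acts on the co-receptor Lrp6, was at 8.71 on the Snail1 KO array and 9.44 on the WT array (-0.73, in its only probe set). Sfrp4, from the Frizzled-related family, had 4.04 on the Snail1 KO array and 4.38 on the WT array, close to the filter level. Dkk3, a divergent member of the Dickkopf family, was at 5.19 and 5.15 on the same arrays. Sfrp2, Dkk1 and the Wnt-binding inhibitor Wif1 were below the filter level, with values between 2.07 and 3.70 and differences between -0.29 and 0.27. All 3 analysed Frizzled-related genes among the members were thus lower, with a median of -1.017. Sfrp5, a Frizzled-related gene outside the members, was not, at 4.93 on the Snail1 KO array and 4.88 on the WT array. Its other probe set differed by -0.26.

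Most of the listed markers of smooth muscle and pericytes were lower on the same array as these inhibitors. Of 10 such markers, 8 were lower on the Snail1 KO array, 2 of them by at least 2-fold, and their summed linear signal was 1069 there and 3727 on the WT array. Transgelin, Tagln, was at 7.80 on the Snail1 KO array and 10.35 on the WT array, and smooth muscle actin, Acta2, at 9.09 and 10.94. These 2 genes made up most of both sums. Myh11, which defines smooth muscle, was at 3.25 on the Snail1 KO array and 4.16 on the WT array. Its average was below the filter level, and the pericyte gene Rgs5 was below that level on both arrays. Mcam differed by -0.94 and Cnn1 by -0.81. Pdgfrb and Lmod1 differed by -0.40 each, close to the filter level. The 2 markers that were higher were Des, by 0.01, and Cspg4, by 0.10. The sum for 8 epithelial markers was 155 on the Snail1 KO array and 261 on the WT array. Of these, 5 were analysed and all 5 were lower, Krt18 by a difference of -1.30 and Krt19 by -1.37, while the other 3 lay between -0.22 and -0.10. The sum for 6 neural markers was 252 and 369 on the same arrays. Of these, 4 were analysed and lower, with Nes at -0.73 and the rest between -0.20 and -0.07. The sums for 10 fibroblast markers were 4294 and 4184, and those for 8 leukocyte markers 655 and 706, again for Snail1 KO and then WT. The brightest markers in these sums, Thy1 and Cd14, differed by -0.06 and 0.17. Of 6 analysed fibroblast markers, 4 were higher and 2 lower, with Fbln2 at 9.11 and 8.51 and Col3a1 at 6.33 and 7.33. The other Col3a1 set differed by 0.22. Of 5 analysed leukocyte markers, 2 were higher and 3 lower, with Coro1a at -1.96 and its other sets at -1.64 and 0.23. The part of other cell types in the differences of Sfrp1, Frzb and Dkk2 was not tested.

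Feedback targets of the pathway differed in opposite directions. Sp5, a zinc finger repressor of the Sp family and a direct target of beta-catenin, was at 5.49 on the Snail1 KO array and 7.38 on the WT array. Its difference of -1.89, or 3.71-fold, was the 62nd lowest of all analysed genes and rests on 1 probe set. Nkd1, a cytoplasmic inhibitor that binds Dishevelled, was at 6.63 on the Snail1 KO array and 5.60 on the WT array, 2.05-fold higher and 112th from the top.

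The other analysed Nkd1 probe set was higher by 0.23, and those below the filter level differed by -0.12 and -0.17, so its place past 2-fold rests on the brightest set, and the mean over its 4 sets was 0.25. Axin2, a scaffold of the destruction complex that is widely read as a measure of pathway activity, was at 6.24 on the Snail1 KO array and 5.51 on the WT array (1.66-fold higher). Its other probe set was below the filter level and differed by 0.07. Znrf3, a membrane ubiquitin ligase that removes Frizzled receptors, was at 6.53 on the Snail1 KO array and 6.44 on the WT array. Nkd2, the relative of Nkd1, had 3.97 and 4.12 on these arrays, at the filter level. Rnf43, the partner ligase of Znrf3, and Apcdd1, a membrane inhibitor, were below it, at 2.57 and 3.89 on the Snail1 KO array against 2.93 and 3.88 on the WT array. The 5 analysed targets had a median of 0.085 and spanned -1.89 to 1.04.

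The promoters of Sp5, Nkd1 and Axin2 are shown because these targets differed in opposite directions. The RefSeq promoter table (build GRCm38.p6) matched 35 of the 54 members with 45 promoters, and Sfrp1 was not matched. Each line gives the 250 bases before the annotated start, 5′ to 3′, at chr2:70474673-70474922 for Sp5, chr8:88527383-88527632 for Nkd1 and chr11:108920099-108920348 for Axin2, all on the plus strand. Capitals mark the core of TCF/LEF sites (CTTTGA or CTTTGT) and the Snail E-box (CACCTG), searched on both strands.
Sp5: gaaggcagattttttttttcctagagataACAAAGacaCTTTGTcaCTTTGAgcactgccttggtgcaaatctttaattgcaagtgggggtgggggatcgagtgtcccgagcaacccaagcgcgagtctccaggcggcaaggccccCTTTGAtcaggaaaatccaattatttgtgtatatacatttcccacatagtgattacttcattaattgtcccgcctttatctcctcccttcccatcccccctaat
Nkd1: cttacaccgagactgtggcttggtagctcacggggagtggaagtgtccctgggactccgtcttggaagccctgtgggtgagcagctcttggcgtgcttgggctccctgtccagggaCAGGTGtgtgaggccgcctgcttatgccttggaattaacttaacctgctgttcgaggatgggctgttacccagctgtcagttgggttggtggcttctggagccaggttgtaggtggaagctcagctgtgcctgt
Axin2: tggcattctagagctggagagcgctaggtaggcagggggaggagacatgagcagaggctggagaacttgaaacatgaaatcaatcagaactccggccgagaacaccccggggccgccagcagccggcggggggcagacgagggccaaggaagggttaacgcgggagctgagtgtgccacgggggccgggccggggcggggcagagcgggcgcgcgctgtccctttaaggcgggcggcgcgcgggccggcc

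The Sp5 window held 4 matches to the TCF/LEF core, starting 221, 212, 204 and 104 bases before the start, and no Snail E-box. The Nkd1 window held 1 Snail E-box, on the minus strand, starting 134 bases before the start, and no TCF/LEF core. The Axin2 window held neither motif. No match of the 2 motifs overlapped another. Over all 32851 promoters of the table, 27.6% held the TCF/LEF core and 17.2% the Snail E-box, against 31.1% and 15.6% of the 45 member promoters. The member promoters were richer in G and C, with a median of 64.4% against 52.4% in all promoters.

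The 10 analysed members with a TCF/LEF core had a median difference of 0.15, and the 16 without one 0.22. The 5 with a Snail E-box had a median of -0.17, with 1 higher and 3 lower, and the 21 without one had 0.23. These medians rest on the brightest probe sets. Among the 5, the analysed sets of Fzd5 gave -0.35 and 0.21, and those of Wnt4 -0.43 and 0.10. A match is a string of letters in the window and not a measured site.

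**Figure D2:**
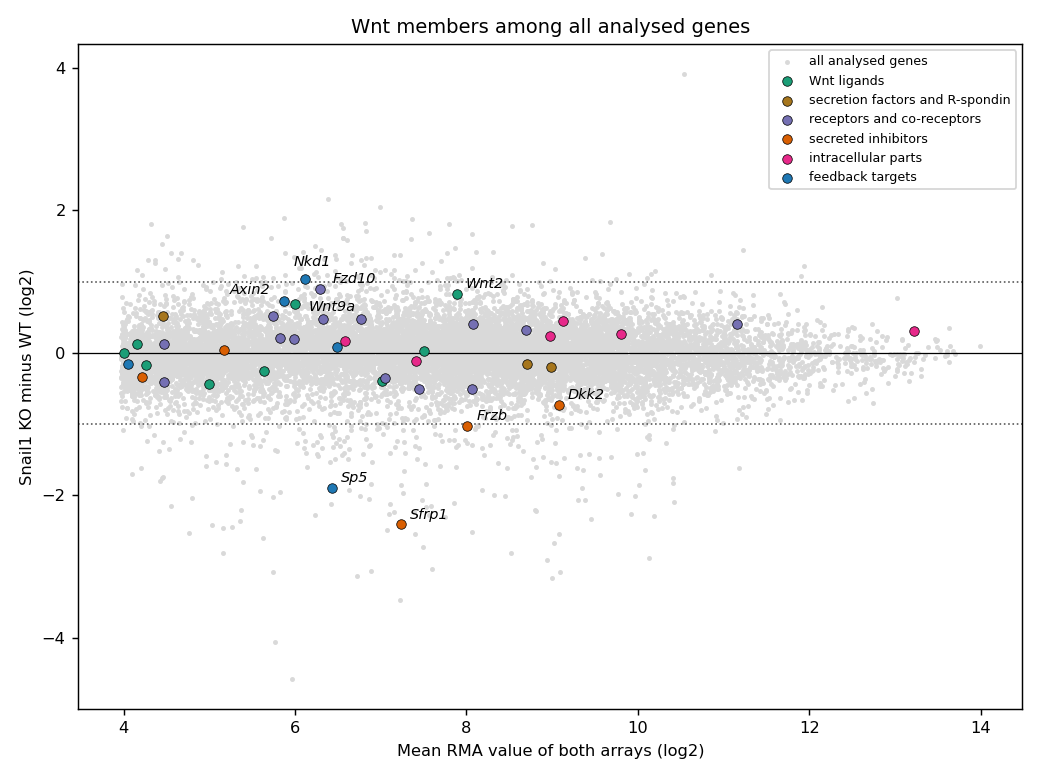
Difference between the Snail1 KO and WT arrays (log2) against the mean value of both arrays for the 12874 analysed genes (grey) and the 42 analysed members (coloured by role), with dotted lines at 2-fold. The 9 members named in the plot differ by at least 1.5-fold, among them Sfrp1 at -2.40, Sp5 at -1.89 and Nkd1 at 1.04.

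Wnt ligands were all within 2-fold, with a median of 0.00 over 9 analysed genes, 4 higher, 4 lower and Wnt2b the same. Wnt2, a ligand that acts through beta-catenin, was at 8.30 on the Snail1 KO array and 7.47 on the WT array (0.83, in its only probe set). Wnt9a was at 6.35 on the Snail1 KO array and 5.66 on the WT array (0.69), with a dimmer probe set at 0.18. These were the ligands past 1.5-fold.

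Wnt5a, known for signalling without beta-catenin, was at 7.52 on the Snail1 KO array and 7.49 on the WT array, and its 4 probe sets differed by no more than 0.04. Wnt7b, a ligand needed for brain vessels, was at 6.82 on the Snail1 KO array and 7.21 on the WT array (-0.39), with another probe set at -0.14. For Wnt4 the brightest probe set gave -0.43 and the other 0.10. Wnt5b, Wnt6, Wnt11 and Wnt2b lay between -0.25 and 0.13. Wnt3 and Wnt10a lay under the filter level, at 2.50 to 3.48. Porcn, the enzyme that attaches the lipid to Wnt proteins, was at 4.71 on the Snail1 KO array and 4.20 on the WT array. Wls, the carrier that brings Wnt proteins to the cell surface, was at 8.89 and 9.09 in its brightest probe set, while its other analysed sets differed by 0.10 and 0.16. Rspo3, an endothelial R-spondin that enhances Wnt signals, was at 8.63 on the Snail1 KO array and 8.79 on the WT array.

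Receptors and co-receptors had a median of 0.267 over 14 analysed members, 10 higher and 4 lower, with none past 2-fold in its brightest probe set. Fzd10 was at 6.74 on the Snail1 KO array and 5.84 on the WT array (1.87-fold higher), with another probe set, below the filter level, at 0.13. All 10 Frizzled genes were analysed. Fzd1, Fzd3, Fzd6, Fzd7, Fzd9 and Fzd10 were higher, and Fzd2, Fzd4, Fzd5 and Fzd8 lower.

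Probe sets of 1 Frizzled gene did not always match in size. Fzd4, the receptor for norrin in retinal vessels, was at 7.82 on the Snail1 KO array and 8.32 on the WT array in its brightest set, and at 7.12 and 8.44 in another, a 2.50-fold lower value. Fzd6, a receptor of planar polarity, was at 11.35 on the Snail1 KO array and 10.96 on the WT array in its brightest set. Another Fzd6 set gave 7.81 and 6.30 on these arrays, 2.85-fold higher, and the third was higher by 0.37. For Fzd4 and Fzd6 the direction held in all analysed sets. For Fzd7 it did not, with 0.51 in the brightest set and -0.50 in the other, and for Fzd5 the sets gave -0.35 and 0.21.

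Of the co-receptors, Lrp6 was at 8.28 on the Snail1 KO array and 7.87 on the WT array (0.41), with another set at 0.04, and Lrp5 differed by 0.19. Ryk, a kinase-like Wnt receptor, was at 8.86 on the Snail1 KO array and 8.54 on the WT array, with other sets at -0.03 and 0.04. Lgr4, a receptor of R-spondins, was at 6.56 on the Snail1 KO array and 6.09 on the WT array. The Wnt5a receptors Ror1 and Ror2 and the stem cell receptor Lgr5 were below the filter level, between 2.78 and 3.73. Ror1 gave the largest difference among members below that level, -0.70, in its brightest set, with others at -0.15 and 0.15.

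Intracellular parts of the pathway differed by -0.12 to 0.45 in their brightest probe sets, with a median of 0.248 over 6 analysed members and 5 of them higher, and by up to 1.84 in other sets. Ctnnb1, which encodes beta-catenin, was at 13.37 on the Snail1 KO array and 13.07 on the WT array in its brightest set. Its other sets gave 12.03 and 11.21 (0.82), and 9.78 and 7.93 (1.84), with the Snail1 KO value given before the WT value. All 3 Ctnnb1 sets were higher, by 0.31 to 1.84, and their mean was 0.99.

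Gsk3b, the kinase that marks beta-catenin for destruction, was at 9.93 on the Snail1 KO array and 9.67 on the WT array, and its 6 probe sets were all higher, by 0.17 to 0.80. Apc, a scaffold of the destruction complex, was at 9.35 on the Snail1 KO array and 8.90 on the WT array, with other sets between -0.20 and 0.75. Axin1, the constant scaffold of the complex, differed by -0.12. The TCF proteins Tcf7l1 and Tcf7l2 differed by 0.23 and 0.16, with the Tcf7l2 sets spread from -0.46 to 0.37. Lef1, a TCF family factor that is itself a target of the pathway, lay under the filter level, at 3.71 on the Snail1 KO array and 3.61 on the WT array.

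**Figure D3:**
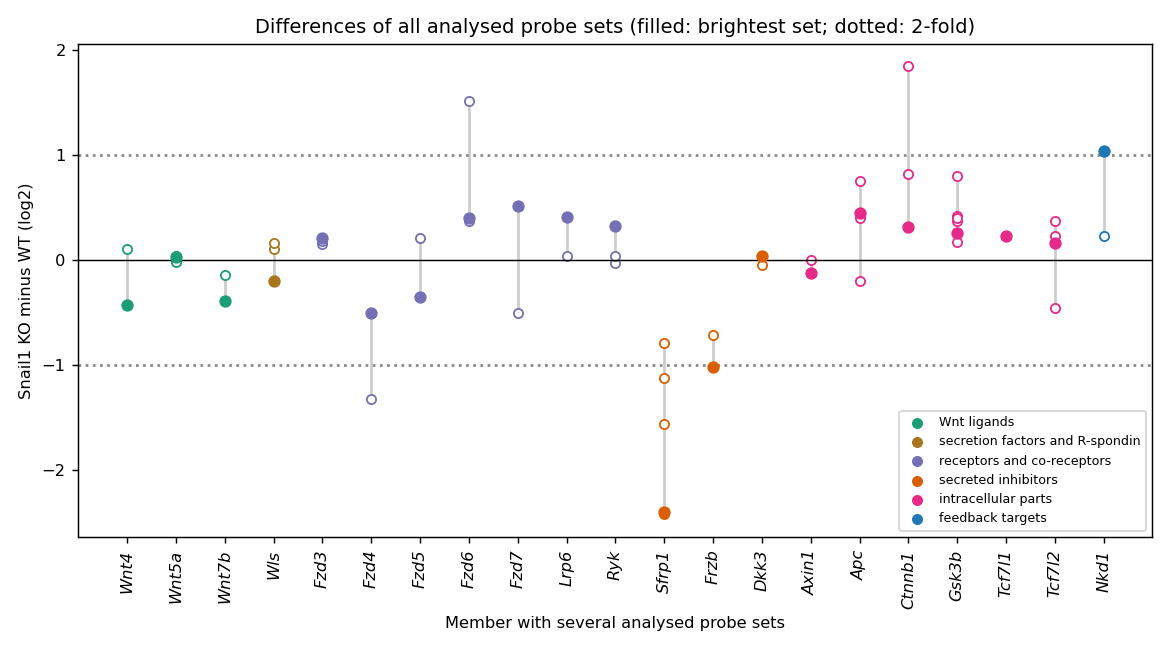
Difference between the Snail1 KO and WT arrays (log2) in every analysed probe set of the 21 members that have several, coloured by role, with the brightest set filled and dotted lines at 2-fold. Sfrp1 lies below zero in all 5 sets, Ctnnb1 above zero in all 3, and Fzd7 has sets at 0.51 and -0.50.

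Counted over probe sets, 81 member sets were analysed. Of these, 3 were at least 2-fold higher, where 1.57% of all 23310 analysed sets were, and 7 were at least 2-fold lower, where 1.52% were. The higher sets belonged to Nkd1, Fzd6 and Ctnnb1. The lower sets belonged to Sfrp1, which supplied 4 of the 7, and to Frzb, Sp5 and Fzd4. Of the 21 members with several analysed sets, 11 went the same way in every set, or 52.4%, against 56.0% of the 6053 genes of this kind on the arrays.

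A further 89 genes of the pathway were listed by role, and 70 of them were analysed, with a median of 0.12. Of these, 1 was at least 2-fold higher and 2 were at least 2-fold lower, together 4.29%, beside 2.81% of all analysed genes past 2-fold in either direction. These lists too were chosen with earlier results known, so the shares do not test them. Nfatc1, a calcium-regulated transcription factor of endocardium, was at 10.04 on the Snail1 KO array and 8.72 on the WT array (1.32), and its other 4 probe sets were higher by 0.86 to 1.63. Cd44, the hyaluronan receptor and a reported beta-catenin target, was at 6.27 on the Snail1 KO array and 8.50 on the WT array (-2.23), with other sets from -2.11 to 0.11. Ccn4, a matricellular protein induced by Wnt1, was at 5.92 on the Snail1 KO array and 7.01 on the WT array, with another set at -1.14.

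The planar polarity and calcium list had a median of 0.272, with 12 of 14 analysed genes higher by any size, where 48.9% of all analysed genes were. At least 1.5-fold higher were 3 of the 14, where 5.06% of all analysed genes were. Prickle1, a core planar polarity protein named after its value was seen, had a difference of 0.99 in its brightest set and -0.31 to 0.20 in others. The small GTPases Rhoa and Rac1, of the same list, differed by 0.12 and 0.15. The further beta-catenin targets had a median of 0.032 over 15 genes, 8 higher and 7 lower, but their mean was -0.271. At least 1.5-fold lower were 4 of the 15, where 6.08% of all analysed genes were, and 0 were 1.5-fold higher. Beside Cd44 and Ccn4, these were Bmp4 (-0.85, in its only probe set) and Fosl1. Fosl1, named after its value was seen, differed by -0.93, with its other set at -0.58. Ccnd1, which encodes cyclin D1, was at 12.47 on the Snail1 KO array and 12.44 on the WT array, and the growth factor gene Bmp4 was at 11.07 and 11.92.

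The 7 other ligands and agonists had a median of -0.042, with Wnt7a, a ligand of brain vessels, at 7.82 on the Snail1 KO array and 7.30 on the WT array and Ndp, which encodes norrin, at 5.64 and 5.53. The 6 other receptors and co-factors had a median of 0.19, with Adgra2, the co-receptor for Wnt7 ligands, at 9.72 and 9.53 on these arrays and the glypican Gpc4 at 7.81 and 8.25. Of the 5 other secreted inhibitors, with a median of 0.051, Igfbp4 differed by 0.26 and Tfpi by -0.49. The 23 other intracellular parts had a median of 0.098, and the ubiquitin ligase part Fbxw11 and the kinase Csnk1a1 differed by 0.00 and 0.12. No gene of these lists passed 2-fold. Kremen2, Prickle3 and T were not matched and were not analysed here.

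**Figure D4:**
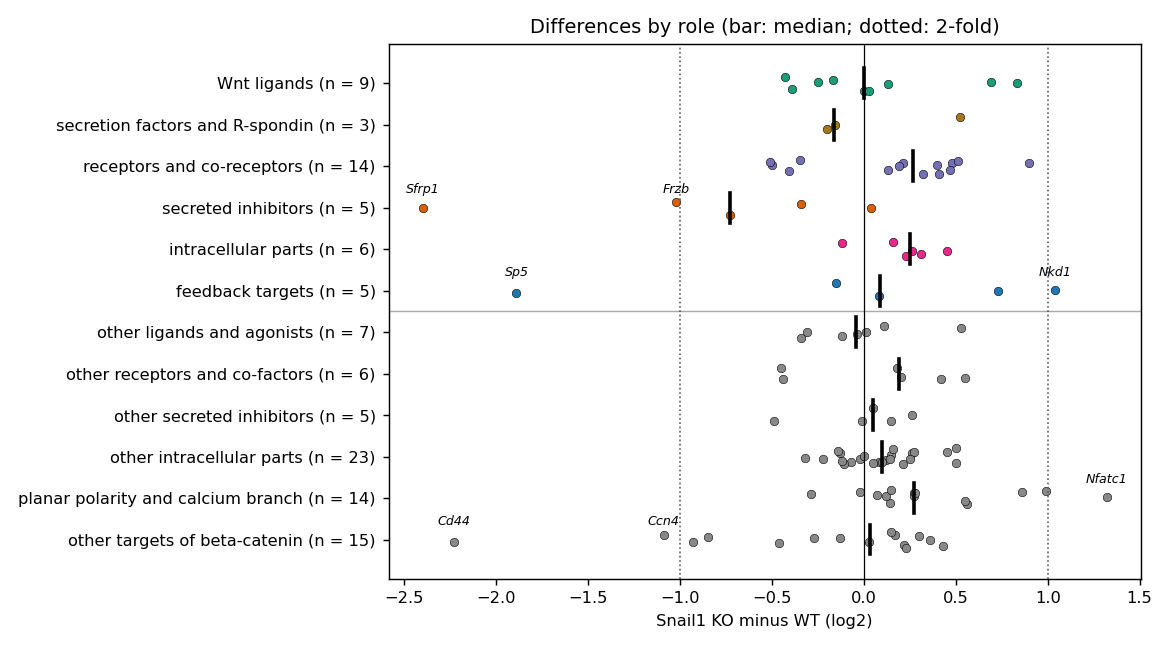
Difference between the Snail1 KO and WT arrays (log2) for each analysed Wnt member by role (coloured, above the line) and for each analysed gene of the other pathway lists (grey), with a bar at each median and dotted lines at 2-fold. The secreted inhibitors have the lowest median, -0.727, and the feedback targets span -1.89 for Sp5 to 1.04 for Nkd1.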

How the data were processed

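Total RNA of 2 cultures (250 ng each) was labelled and hybridised to Affymetrix arrays, per the labels' protocols. The deposited table holds log2 expression values, for which the submitters' processing notes name RMA and the affy package. RMA equalises the distributions of the arrays and compresses folds of dim probe sets. No versions or detection calls are given there. Of 45101 probe sets, 64 controls, 932 with several symbols and 9160 with none here were left out of gene values.

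The computation used Python 3.11.15, numpy 2.4.6 and pandas 2.3.3. Genes were represented by the brightest probe set, filtered at the 40th percentile and counted at 2-fold. The scripts were tested on simulated data. Named genes were the members at least 1.5-fold different, the 3 brightest of each role, other pathway genes past 2-fold and the 2 brightest of each list, beside the remaining members. Prickle1, Celsr1 and Fosl1 were named after their values were seen. Members and lists were chosen with earlier results of these data known. Alternatives changed the filter, the probe set, the centring and the threshold. With 1 array per group, precision is limited by the number of arrays.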

Additional observations from a re-analysis of the deposited data

Results flagged for a closer look

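The arrays carry 4 control probe sets for Cre itself, outside all comparisons of genes, and these gave a strong signal on the Snail1 KO array and not on the WT array. Their values were 11.87, 12.34, 12.70 and 12.86 on the Snail1 KO array, against 3.83, 2.82, 3.26 and 2.69 on the WT array, in the same order of probe sets. The differences were 8.04, 9.52, 9.44 and 10.17, with WT values below the filter level, so their exact size is not measured. Such probe sets also read Cre transcript added with a hybridisation control mix. The 14 probe sets for bioB, bioC and bioD, which belong to that mix, were at 2.16 to 6.76 on the Snail1 KO array and 2.30 to 6.51 on the WT array, with differences from -0.42 to 0.27. The source of the Cre signal and its relation to any Wnt gene were not tested further.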

How the results depend on the processing

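With 1 array per group, no array could be left out and no paired analysis was possible because each group holds a lone array. The count of members at least 2-fold lower was 2 with the mean of all probe sets and stayed at 3 under the other alternatives that kept this threshold. At the 1.5-fold threshold 4 members were lower, and at the 3-fold threshold 2 were. All these counts were within 1.5 times of 3. The count of members 2-fold higher, 1 in the report, was 0 with the mean of all probe sets, 5 at 1.5-fold and 0 at 3-fold. For the other pathway genes the 1.5-fold threshold gave 3 higher and 4 lower, and the 3-fold threshold 0 and 1. Over all analysed genes, the 1.5-fold threshold gave 652 higher and 783 lower genes, the 3-fold threshold gave 23 and 90, and averaging each gene's probe sets gave 77 that were 2-fold higher. A filter at the 60th percentile left 31 members, and then the median of the members was 0.213, that of the ligands 0.361, that of the secreted inhibitors -1.017 and that of the feedback targets 0.409. Without a filter the median of the secreted inhibitors was -0.315. With the mean of all probe sets the medians were 0.109 for secretion factors and R-spondin, which is a change of sign, 0.147 for receptors and 0.197 for feedback targets. These filters and means change which genes or probe sets enter, and no further cause was tested. Averaging moved 6 of 57 single genes by more than the probe-set SD of 0.40, among them Ctnnb1 to 0.99, Fzd7 to 0.01, Ror1 to -0.23 and Cd44 to -1.26, and turned none that was past 2-fold to the opposite sign. Leaving out probe sets that can bind several transcripts, which kept 52 of the 57 genes, and centring on the median of all genes moved none of the genes kept by that much. Signal over background is unknown for single probe sets, so values near the filter level carry little weight.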
